A study of Mus musculus with 2 samples.

Results

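The 14-3-3 family was examined in ribosome-protected fragments from mouse brain polysomes. Its members were the 6 genes named Ywhab, Ywhae, Ywhag, Ywhah, Ywhaq and Ywhaz, which encode the beta, epsilon, gamma, eta, theta and zeta proteins. They were found by gene symbol, and their 29 annotated transcripts stood among 109463 transcripts of 45578 genes. Both samples were whole brains of control mice at postnatal day 5, numbered biological replicates 1 and 2 of a single group (n = 2). Each animal carried the genotype Smn+/-; SMN2tg/0, on an FVB background: the endogenous Smn gene is heterozygous for a null allele and SMN2, its human paralogue, is present as a transgene. Brains without these alleles were not analysed here, so every value below belongs to this genotype.

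The 14-3-3 proteins are small acidic adaptors that work as dimers. Each subunit holds a groove that grips phosphorylated serine or threonine in a client protein, and the dimer can thereby hide, activate or relocate kinases, transcription factors, channels and enzymes. They are known as some of the most plentiful soluble proteins of brain, where they act in neuronal migration, neurite growth and synaptic signalling.

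In ribosome profiling, nuclease removes the mRNA that ribosomes do not cover, so the number of protected fragments, called footprints, counts ribosomes on a gene's transcripts. Whole-tissue values cannot separate a change in the number of cells of a type from a change in RNA or ribosomes per cell. The libraries held 1866831 and 5261878 footprints, and a count of 0 allowed up to 1.61 and 0.570 CPM (footprints scaled to a library total of 1000000), taking 3 counts as the floor. Brain identity was checked on marker genes. The 7 neuronal markers together stood at 5277 and 4131 CPM, 4 astrocyte markers at 1318 and 1273 CPM and 4 markers of the oligodendrocyte lineage at 696 and 911 CPM. The 6 markers of tissues other than brain (liver, muscle and skin) stood at 2.68 and 3.61 CPM, and Alb and Apoa2 had no footprint in either library.

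Together the 6 genes took 10799 footprints in replicate 1 and 22831 in replicate 2. This was 0.578% of the first library (Clopper-Pearson 95% interval 0.568 to 0.589) and 0.434% of the second (0.428 to 0.440), or 0.506% ± 0.102 (SD, n = 2). Replicate 2 gave the smaller share, and the intervals did not overlap. Intervals here cover counting error only, and not the spread between animals. They can be too narrow even for counting error, because PCR copies of a fragment are not independent molecules.

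To compare genes of different length, counts were divided by the longest annotated coding sequence of each gene and by the library total. The resulting coding density is given as CPM per kilobase of coding sequence. The complete 14-3-3 coding sequences span 738 to 768 nucleotides, or 245 to 255 residues, so length altered the order within the family little, except for Ywhaq. The table's longest coding sequence for that gene, 912 nucleotides, belongs to Ywhaq-002, which has no annotated 5' untranslated region. Transcripts with both untranslated regions give 738 nucleotides, and Ywhaq values are therefore given on both lengths. All 6 members averaged more than 10 footprints and entered every comparison.

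Most of the family's ribosomes lay on 3 genes: Ywhaz, Ywhae and Ywhag together held 70.4% of the summed coding density in replicate 1 and 69.2% in replicate 2. In each library the lowest of these genes stood above the highest of Ywhah, Ywhaq and Ywhab, by 1.96-fold in replicate 1 and 1.59-fold in replicate 2. With the complete Ywhaq coding sequence the gap was 1.94-fold and 1.28-fold. The gap depended on which transcripts were counted. Protein-coding transcripts were also counted alone, with each library scaled to its total on such transcripts. The mean of Ywhae was then 859, against 775 for Ywhab and 725 for Ywhaq on its longest coding sequence. On the complete Ywhaq coding sequence the mean of Ywhaq lay above that of Ywhae, so the gap was absent in the means. With only the highest transcript of each gene, likewise scaled to the library's total on those transcripts, the mean of Ywhaz was 824 against 766 for Ywhab. In replicate 1 Ywhab was then the higher, with 672 footprints on 741 coding nucleotides against 661 on 738 for Ywhaz. The gap was therefore absent in replicate 1 under this counting. With 2 samples of 1 group no test of a level can be made, and these orders are descriptions.

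Ywhaz (ENSMUSG00000022285; RefSeq chromosome 15, 36770261 to 36802984) encodes the zeta protein, a partner of the Raf kinases. It had 2678 and 6071 footprints in replicates 1 and 2. Its coding density was 1944 (95% interval 1871 to 2019) and 1563 (1524 to 1603), with a mean of 1754 ± 269 (SD, n = 2). Summed over all its transcripts it was first of the family in both libraries and ranked 10 of the 13317 tested genes with a protein-coding transcript. It lost first place under other countings. With only the highest transcript of each gene its mean was 824, below Ywhag at 1213 and Ywhae at 985, and per whole transcript length it was 645, below Ywhae at 976.

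Ywhae (ENSMUSG00000020849; chromosome 11, 75732887 to 75765841) encodes the epsilon protein, which binds phosphorylated Ndel1 in migrating neurons. It had 2385 and 5181 footprints and a coding density of 1664 and 1282, or 1473 ± 270 (SD, n = 2), at rank 16. Ywhag (ENSMUSG00000051391; chromosome 5, 135908379 to 135934641) encodes the gamma protein. It had 2404 and 4184 footprints and a coding density of 1731 and 1069, or 1400 ± 468, at rank 19. Summed over all transcripts, the order of these neighbours was not the same in both libraries. Ywhae over Ywhag was 0.961 in replicate 1 (95% interval 0.908 to 1.02) and 1.20 in replicate 2 (1.15 to 1.25), and their replicate ranges overlapped. Ywhaz exceeded Ywhae in both, by 1.17-fold (1.11 to 1.24) and 1.22-fold (1.17 to 1.27), although the ranges over replicates overlapped there too. The order of Ywhae and Ywhag also depended on the counting. With protein-coding transcripts alone Ywhag was higher in both libraries, with means of 1575 against 859. With only the highest transcript the means were 1213 for Ywhag and 985 for Ywhae. Per whole transcript length Ywhae was higher, at 976 against 434.

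Ywhah (ENSMUSG00000018965; chromosome 5, 33018816 to 33027966) encodes the eta protein, first described as an activator of tyrosine and tryptophan hydroxylase. It had 1174 and 2344 footprints and a coding density of 849 and 601, or 725 ± 175 (SD, n = 2), at rank 94. Ywhab (ENSMUSG00000018326; chromosome 2, 163995197 to 164018588) encodes the beta protein. It had 976 and 1820 footprints and a coding density of 706 and 467, or 586 ± 169, at rank 150.

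Ywhaq (ENSMUSG00000076432; chromosome 12, 21390329 to 21417436) encodes the theta protein, also called tau. It had 1182 and 3231 footprints. Its coding density was 694 and 673, or 684 ± 14.8 (SD, n = 2), at rank 107. On the complete coding sequence it was 858 and 832, or 845 ± 18.3. Replicates of Ywhaq lay closer together than those of any other member.

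The order of the means of Ywhah and Ywhaq turned with the choice of length, while in replicate 2 Ywhaq was the higher on either. On the longest coding sequence Ywhah exceeded Ywhaq by 1.22-fold in replicate 1 (95% interval 1.13 to 1.33), and the ratio was 0.893 in replicate 2 (0.846 to 0.942). On the complete coding sequence Ywhaq over Ywhah was 1.01 in replicate 1 (0.932 to 1.10) and 1.38 in replicate 2 (1.31 to 1.46). The replicate ranges of Ywhah, Ywhaq and Ywhab overlapped at each neighbouring pair on either length. The range between Ywhag and the next gene did not overlap on either.

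**Figure D1:**
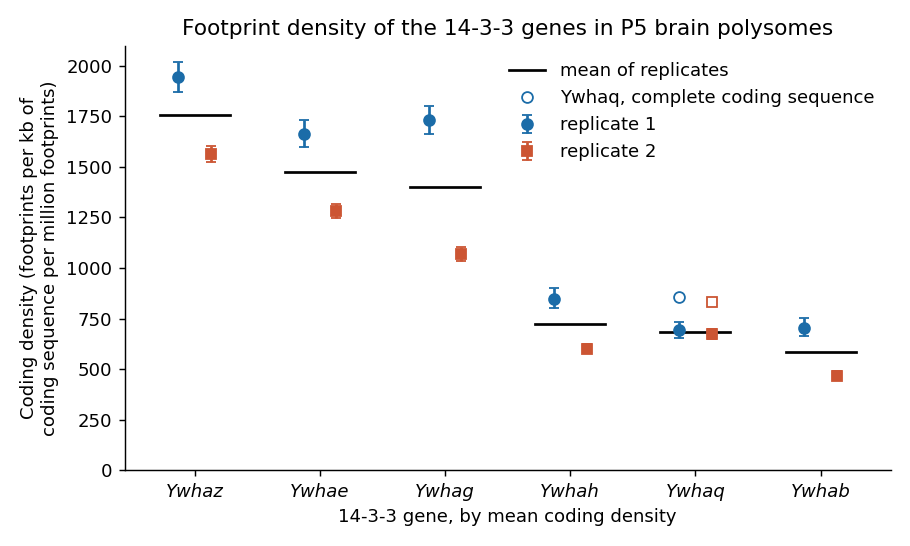
Coding density (CPM per kilobase of coding sequence) of the 14-3-3 genes in replicate 1 (circles) and replicate 2 (squares), with Clopper-Pearson 95% counting intervals and the mean as a line; open symbols give Ywhaq on its complete coding sequence. Ywhaz, Ywhae and Ywhag sit at 1069 and above in both libraries, and the other genes sit at 858 and below.

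All the members lay far up the distribution of brain footprints. The median coding density of the 13317 genes was 22.02 in replicate 1 and 24.6 in replicate 2, and the lowest member, Ywhab, stood at percentile 98.9 of their mean densities. The median member stood at 4.49 and 2.82 times the median of 82 cytosolic ribosomal protein genes.

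The replicates were then compared at each member, to ask how far the libraries of the same group gave the same level. Counts were scaled by trimmed means of M values (TMM), and log2 ratios are replicate 2 over replicate 1. In the exact binomial test, adjusted by the Benjamini-Hochberg method over 16427 genes, 6 of 6 members were called at an adjusted p under 0.05, all lower in replicate 2. Of all tested genes, 17.4% were called and 11.5% were called lower. Of the 1679 genes averaging 500 footprints or more, where small differences pass the test more easily, 39.1% were called lower. Over all genes, 978 were higher and 1883 lower at TMM scaling, and 1896 higher and 1227 lower when library totals were used. The median log2 ratio was -0.56 over the members, -0.10 over those 1679 genes and 0.01 over all tested genes. This test compares 2 libraries and covers counting error alone. The spread between the replicates was taken into account in edgeR's exact test, with a common dispersion estimated from the same pair of libraries. That dispersion counts every difference between the 2 libraries as spread, so the test could call few genes, and its outcome decides nothing about the members. This test called 0 of 6 members and 11 of all genes. At an unadjusted p under 0.05 in edgeR's exact test stood 2 members, Ywhag (0.0175) and Ywhab (0.0382), and 719 of all genes. The neuronal markers were also lower in replicate 2, at 4131 against 5277 CPM in sum, and the oligodendrocyte-lineage markers higher, at 911 against 696 CPM; their part in the members' differences was not tested.

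The differences were uneven within the family. Ywhag had the lowest log2 ratio, -0.82 (95% interval -0.89 to -0.75; adjusted p = 4.12e-100, exact binomial test), and its CPM was 1288 and 795. Ywhab followed at -0.72 (-0.84 to -0.61; adjusted p = 3.84e-32, exact binomial test) and Ywhah at -0.62 (-0.73 to -0.52; adjusted p = 1.16e-29, exact binomial test). For Ywhae the log2 ratio was -0.50 (-0.57 to -0.43) and for Ywhaz -0.44 (-0.51 to -0.37). Ywhaq stood nearest to 0 at -0.17 (-0.27 to -0.07; adjusted p = 0.00554, exact binomial test), with a CPM of 633 and 614. Scaling to library totals, which shifts every log2 ratio up by 0.13, brought Ywhaq to -0.04 (adjusted p = 0.605, exact binomial test) and left the other 5 members called.

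**Figure D2:**
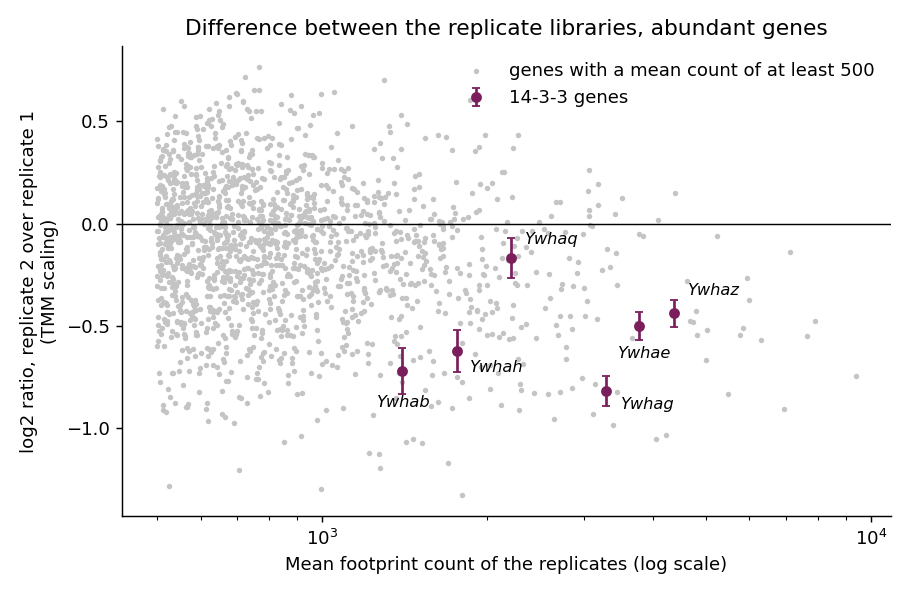
Log2 ratio of replicate 2 over replicate 1 at TMM scaling (vertical axis) against the mean footprint count (horizontal log axis) for the 1679 genes averaging 500 footprints or more (grey) and the 14-3-3 genes, with 95% counting intervals. The 14-3-3 genes run from -0.17 for Ywhaq to -0.82 for Ywhag, all below 0.

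The ratios were also read against footprint density. A smoothed curve of log2 ratio on footprints per nucleotide of transcript, fitted over all tested genes, stood between -0.23 at Ywhab and -0.48 at Ywhae. With this curve removed, 17.0% of all genes were called, and 4 of 6 members. Ywhab, Ywhag and Ywhah remained lower, at -0.49, -0.47 and -0.29. Ywhae and Ywhaz came to -0.02 each and were not called, with adjusted p-values of 0.761 and 0.775 (exact binomial test). Ywhaq turned to 0.17 (adjusted p = 0.00416, exact binomial test). The part of footprint density in the differences was not tested further.

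Shares within the family need no scaling between libraries and showed the same unevenness. Of the family's footprints, Ywhag held 22.3% in replicate 1 (95% interval 21.5 to 23.1) and 18.3% in replicate 2 (17.8 to 18.8). Ywhaq held 10.9% (10.4 to 11.5) and 14.2% (13.7 to 14.6). Ywhaz held 24.8% (24.0 to 25.6) and 26.6% (26.02 to 27.2), and Ywhab 9.04% (8.50 to 9.59) and 7.97% (7.62 to 8.33). In these 4 genes the intervals of the libraries did not overlap. They overlapped for Ywhae, at 22.1% and 22.7%, and for Ywhah, at 10.9% and 10.3%.

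**Figure D3:**
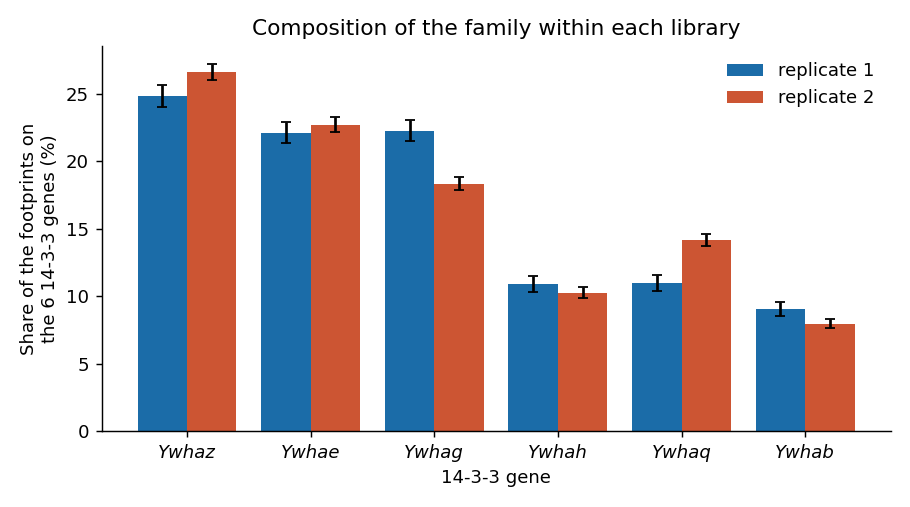
Share of the footprints on the 6 14-3-3 genes (percent, vertical axis) held by each gene in replicate 1 and replicate 2, as bars with Clopper-Pearson 95% counting intervals. Ywhag is lower in replicate 2, at 18.3% against 22.3%, and Ywhaq is higher, at 14.2% against 10.9%.

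Genes with nearly the same pair of coding densities were listed for each member by the Euclidean distance between log2 densities over the 2 libraries. Nearest to Ywhaz were Gng2 (distance 0.09) and Nrep (0.24), and nearest to Ywhae were Nsg1 (0.07) and Calm2 (0.12). Ywhag lay nearest to Cst3 (0.03) and Stmn2 (0.08), and Ywhah to Gm1673 (0.05) and Syp (0.09). Ywhaq lay nearest to H3f3a (0.01) and Fkbp1a (0.04), and Ywhab to Fabp5 (0.01) and Ndufa4 (0.07). A pair of libraries gives a coarse measure of likeness. All of these genes except Syp, at 945 nucleotides, have coding sequences shorter than those of the 14-3-3 genes.

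The footprints of a gene were spread over several annotated transcripts, and how the authors placed fragments that match more than 1 of them is not given in the sources used here. In the whole table, 61 pairs of transcripts of 1 gene had identical transcript, coding and untranslated lengths. The squared difference of their paired counts over the sum averaged 0.946, where 0 would mean that a fragment was counted on both and 1 is the value for independent counts. All transcripts of a gene were for that reason added up, and their single counts are not read as isoform use. In Ywhaq the counts were nearly equal: the coding transcripts Ywhaq-001, Ywhaq-002, Ywhaq-003 and Ywhaq-201 had 240, 234, 240 and 238 footprints in replicate 1. In replicate 2 they had 641, 657, 644 and 631. The complete coding transcripts of Ywhaz, named Ywhaz-001, Ywhaz-002 and Ywhaz-003, had 571, 661 and 617 footprints in replicate 1 and 1327, 1428 and 1437 in replicate 2. They share a coding length of 738 nucleotides and differ in their untranslated regions.

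Footprints on transcripts annotated as protein coding made up 72.6% and 71.7% of the family's total, against 81.04% and 79.5% over all tested genes with a coding transcript. Both transcripts of Ywhab were protein coding. In Ywhag, Ywhaz and Ywhaq, coding transcripts held 85.2% ± 0.103, 81.5% ± 0.641 and 80.09% ± 0.641 (SD, n = 2). In Ywhah they held 51.7% ± 1.90 and in Ywhae 44.1% ± 0.449. For Ywhae the remainder lay on Ywhae-002, a short transcript annotated as a target of nonsense-mediated decay, with 20.7% ± 1.96, and on the retained introns Ywhae-003 and Ywhae-004, with 20.06% ± 0.434 and 15.1% ± 1.08. Ywhae-001, the complete coding transcript, held 34.3% ± 0.712, and the coding fragment Ywhae-005 held 9.79% ± 1.16.

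Retained-intron transcripts of the family were unequally covered. Ywhag-002, of 2238 nucleotides, had 5.54 footprints per 100 nucleotides in replicate 1 and 9.29 in replicate 2. The coding transcripts of the same gene were denser, with 30.3 and 53.9 on Ywhag-001 and 60.8 and 103.6 on Ywhag-005. Ywhaz-007, of 924 nucleotides, had 52.3 and 124 footprints per 100 nucleotides of whole transcript, more than any of the 6 coding transcripts of its gene. Those ran from 20.1 on Ywhaz-002 to 48.9 on Ywhaz-005 in replicate 1, and from 41.2 on Ywhaz-004 to 95.7 on Ywhaz-005 in replicate 2. Whole length includes untranslated regions, which lower the value of a coding transcript. Ywhaz-002, for example, has 738 coding nucleotides in 3288. The order is therefore not one of density on coding sequence. Retained-intron transcripts can share exons with coding transcripts, so their footprints need not come from a transcript that keeps its intron.

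For some transcript classes of Ywhah and Ywhae the counting intervals of the libraries did not overlap, with the widest separation in Ywhah. These intervals treat PCR copies as independent molecules and were not adjusted for the number of classes examined. Its retained-intron transcript Ywhah-004 held 19.6% of the gene's footprints in replicate 1 (95% interval 17.4 to 22.0) and 12.2% in replicate 2 (10.9 to 13.6). The processed transcripts Ywhah-002 and Ywhah-003 together held 27.3% (24.8 to 30.0) and 37.4% (35.4 to 39.4). The coding transcript Ywhah-001 held 53.1% (50.2 to 56.0) and 50.4% (48.3 to 52.4), with overlapping intervals. In Ywhae the decay-annotated Ywhae-002 held 22.1% (20.40 to 23.8) and 19.3% (18.2 to 20.38), intervals that narrowly missed each other. For every other class of Ywhae, Ywhag, Ywhaq and Ywhaz they overlapped.

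**Figure D4:**
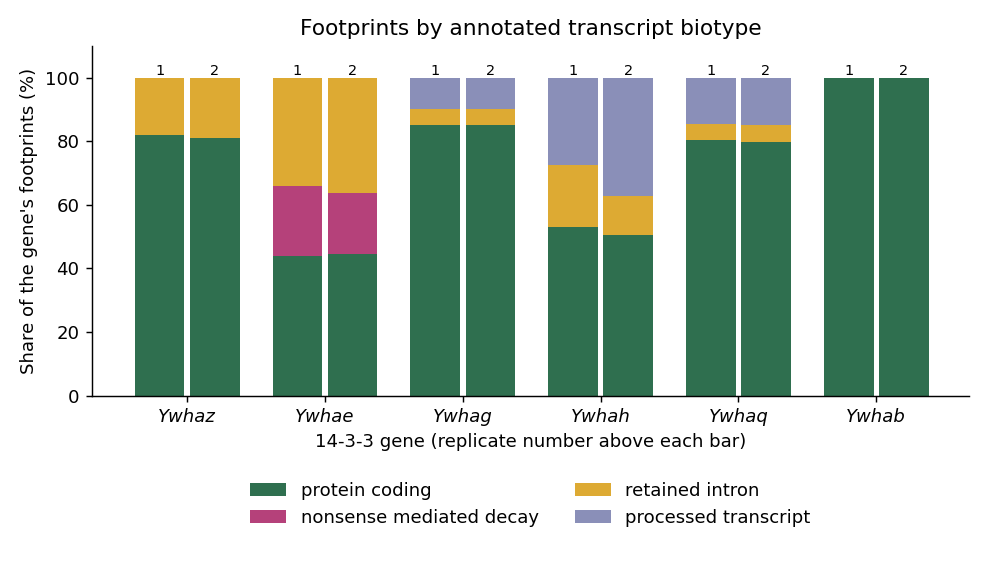
Share of each gene's footprints (percent, vertical axis) on transcripts annotated as protein coding, nonsense-mediated decay, retained intron or processed transcript, with 1 bar per replicate. Ywhab has coding transcripts only, coding transcripts of Ywhae hold 44.1%, and the retained-intron share of Ywhah is 19.6% in replicate 1 and 12.2% in replicate 2.

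Beyond the listed members, the table held the pseudogene Ywhaq-ps2 and Sfn, the epithelial sigma protein that completes the mammalian family. Sfn had 1 footprint in replicate 1 and 2 in replicate 2, at or below the floor of 3 counts. Its level was 0.536 CPM (95% interval 0.0136 to 2.98) and 0.380 CPM (0.0460 to 1.37). Ywhaq-ps2, a processed copy of 643 nucleotides, had 57 and 147 footprints, or 4.82% and 4.55% of the count of Ywhaq. Fragments from near-identical stretches of Ywhaq and its copies cannot be placed with certainty, and the members' counts are uncertain to that extent.

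Transcript and promoter features, which the choice by name did not use, varied among the members. Their longest 3' untranslated regions ran from 771 nucleotides in Ywhah to 2586 in Ywhag, at percentiles 34.3 and 78.4 of the tested coding genes. Promoters were listed in RefSeq (GRCm38.p6) for 4 of the 6, and the 250 bases before the start held 29 CG dinucleotides in Ywhae and Ywhah, 24 in Ywhaq and 16 in Ywhag. The median over 32841 RefSeq promoters was 6. The motif TATAAA, searched on both strands, was present in Ywhah alone among the 4, and in 12.4% of all promoters. The cyclic AMP response element TGACGTCA, which reads the same on both strands and was chosen after the sequences were seen, was likewise present in Ywhah alone among the 4, and in 1.55% of all promoters. The promoters with the fewest and, jointly with Ywhae, the most CG dinucleotides are shown to let these counts be read, 5' to 3' on the strand of the gene, with CG in capitals. That of Ywhag lies at chr5:135934642-135934891 on the minus strand and that of Ywhah at chr5:33018566-33018815 on the plus strand. The match of a motif is a description of these letters and not a measured binding site.
Ywhag: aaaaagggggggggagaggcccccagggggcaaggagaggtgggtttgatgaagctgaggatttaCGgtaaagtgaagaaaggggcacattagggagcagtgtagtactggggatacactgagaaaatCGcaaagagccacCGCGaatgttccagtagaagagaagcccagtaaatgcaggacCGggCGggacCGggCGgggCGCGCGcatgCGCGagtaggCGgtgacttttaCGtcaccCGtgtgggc
Ywhah: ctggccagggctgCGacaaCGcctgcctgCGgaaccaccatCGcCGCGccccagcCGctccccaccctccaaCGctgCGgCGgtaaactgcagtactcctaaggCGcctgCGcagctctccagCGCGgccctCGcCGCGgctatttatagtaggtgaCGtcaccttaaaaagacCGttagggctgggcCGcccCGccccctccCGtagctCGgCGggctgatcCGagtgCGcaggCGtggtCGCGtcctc

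Clients and partners of 14-3-3 proteins were taken as a list of 45 genes, among them kinases, cell-death regulators, transcription factors and channels. All 45 were tested. The highest coding densities belonged to Pafah1b1, the Lis1 subunit that works with Ndel1 and dynein in neuronal migration, at 420 ± 38.0 (SD, n = 2), and to Ddit4, an inhibitor of mTOR signalling, at 180 ± 47.0. They were followed by the death effector Bax at 127 ± 35.8, the beta-catenin antagonist Cby1 at 120.1 ± 9.62 and the kinase Araf at 109 ± 4.57. None of the 45 reached the density of the lowest 14-3-3 gene. The median client stood at 18.9, and the 14-3-3 sum was 3.86 times the sum over all 45 clients in replicate 1 and 2.82 times in replicate 2.

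Of the 45 clients, 8 were called between the libraries in the exact binomial test (17.8%, against 17.4% of all genes), 4 higher and 4 lower in replicate 2. Higher were Mdm4, an inhibitor of p53, at a log2 ratio of 1.03, the Hippo pathway coactivator Yap1 at 0.62, Ndel1 at 0.53 and the guanine nucleotide exchange factor Arhgef2 at 0.35. Lower were Bax at -0.70, Ddit4 at -0.66 and the insulin receptor substrates Irs1 at -0.44 and Irs2 at -0.40. The median log2 ratio of the clients was -0.03, against -0.56 for the 14-3-3 genes. Th and Tph2, the hydroxylases through which 14-3-3 proteins were first linked to neurotransmitter synthesis, had densities of 12.9 and 12.8 for Th and 8.03 and 4.79 for Tph2 in replicates 1 and 2, and neither was called.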

How the data were processed

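The authors deposited 1 table of whole-number footprint counts per transcript from 2 control brains, without normalization, together with annotated lengths. Per the submitters' processing notes, Trimmomatic 0.36, Bowtie2 2.2.6, SAMtools and GRCm38.p4 were used, with no role or order given. Annotation release, strand, duplicates and the treatment of fragments matching several transcripts are not given in the sources used here. Positions and promoters are RefSeq's on GRCm38.p6. All 6 symbols matched its gene table.

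Counts were summed per gene and divided by library totals (CPM) and coding length. The 2 libraries were compared by a two-sided exact binomial test per gene (scipy 1.17.1) against TMM effective library sizes (edgeR 4.0.16), over the 16427 genes averaging 10 footprints or more. P-values were adjusted over those genes by the Benjamini-Hochberg method. Log2 ratios used a prior of 0.5 CPM. The test was checked on simulated counts that carried counting error alone. Its behaviour under a spread between animals was therefore not checked. With 1 group there is no contrast, so edgeR's quasi-likelihood fit was not possible. The alternatives were DESeq2 1.42.0 size factors, library totals, filters, other transcript sums and lengths, and removal of the density trend (lowess, fraction 0.3, by gene). Where whole transcript length was used, it was the count-weighted mean over a gene's transcripts.

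Members and gene lists were chosen with earlier results of these data known. Named genes were the members, other Ywha rows and Sfn, transcripts with at least 5% of a member's footprints, clients called or among the 5 densest, and the 2 nearest genes per member; Th, Tph2 and the remaining genes were named after their values were seen. A comparison with 1 further gene family is not reported here.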

Additional observations from a re-analysis of the deposited data

Results flagged for a closer look

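The pseudogene Ywhaq-ps2, which lay outside the members, had footprints above the limit that a count of 0 allows in both libraries. Its level was 30.5 CPM in replicate 1 (Clopper-Pearson 95% interval 23.1 to 39.6) and 27.9 CPM in replicate 2 (23.6 to 32.8), with a mean of 29.2 ± 1.84 (SD, n = 2). Per 100 nucleotides it had 8.86 and 22.9 footprints, and its log2 ratio of -0.25 was not called (adjusted p = 0.515, exact binomial test). The part of Ywhaq fragments in this count was not tested.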

How the results depend on the processing

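Of 42 log2 ratios of members under 7 alternatives, 37 kept their direction and call, 4 kept their direction without the call and 1 reversed. The settings with no filter and with a minimum mean count of 100 reuse the main log2 ratios, so only the call could change there. Ywhaq reversed to 0.17 with the density trend removed. The number of members called was 6 with DESeq2 size factors, no filter, a minimum mean count of 100 and protein-coding transcripts alone. It was 5 with library totals and with the highest transcript alone, and 4 with the trend removed. In edgeR's exact test it was 0, and 11 of all genes were called. That test took its spread from the same pair of libraries, so it could call few genes. All genes called numbered 2861 of 16427 in the main setting and 1444 of 15353 with the highest transcript alone. With the highest transcript alone or protein-coding transcripts alone, each library was scaled to its total on those transcripts. The family share was 0.362% of that total with the highest transcript alone, in place of 0.506% of all footprints. The summed coding density, 6621 in the main setting, was 4786 with the highest transcript alone and 2980 per whole transcript length. The ratio of the highest to the lowest member density, 3.07 in the main setting, was 3.86 with protein-coding transcripts, 4.57 with the highest transcript alone and 5.23 per whole transcript length. The genes at the ends changed too: by mean density the lowest was Ywhab in the main setting and per whole transcript length, Ywhah with protein-coding transcripts (498) and Ywhaq with the highest transcript alone (268, in place of 684), and the highest was Ywhaz, Ywhae, Ywhaz and Ywhag in that order of settings. Of 42 member densities under alternatives, 15 moved by more than 1 SD. Many of the rest could not move, because with 2 libraries the value of either always lies within 1 SD of their mean. The coding length of the highest transcript equalled the main length in every member, and the complete coding sequence differed from it in Ywhaq alone. With 1 replicate left out, the share ran from 0.434% to 0.578% and the summed density from 5655 to 7587; a comparison of the libraries cannot be made without either. The complete coding sequence was chosen after the data were examined. The depth of replicate 1 sets the width of its intervals.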
